A study of Mus musculus with 12 samples.

Results

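Mouse embryonic stem cells kept for 6 days in 2i together with 50 µM of an MRE11 inhibitor were compared with the day 0 cells of the same line, which the labels call primed. Genes were not chosen by their values: all 56691 mouse gene IDs of the count files enter, in 3 libraries of each group, and 13230 of them passed the low-count filter and were tested. These 6 libraries are part of a series of 12. All cells were R1 cells, a male embryonic stem cell line of the 129/Sv background. The day 0 cells grew on gelatin with serum and the cytokine LIF and had no treatment. The treated cells had 2i and 50 µM of the inhibitor from day 0 to day 6. The sources used here give neither the inhibitor's name nor the base medium used with 2i. The other 6 libraries, 3 after 6 days in 2i alone and 3 after 6 days in 2i with 25 µM of the inhibitor, were used in the same fit and to place each change. No group was kept for 6 days without 2i or had the inhibitor without 2i, so against primed cells the time in culture, 2i and the inhibitor cannot be told apart. A difference between 50 µM and 2i alone was therefore tested as a contrast of its own. The labels do not say that replicates were separate cultures, so p-values reflect only how far these libraries differ among themselves, and that spread may be technical.

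2i is a pair of kinase inhibitors: one blocks MEK, the kinase that activates ERK, and the other blocks GSK3, the kinase that marks beta-catenin for degradation. It holds mouse embryonic stem cells in the naive state of the preimplantation epiblast, with high levels of factors such as Tfcp2l1 and Klf4, low levels of formative and primed genes such as Otx2, and reduced DNA methylation. MRE11 is a nuclease that works with RAD50 and NBN as a complex, trimming DNA ends at double-strand breaks and nascent DNA at stalled replication forks. The title of the series names MRE11 and DNA replication in the return of primed cells to the naive state.

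RNA was measured by 3′ sequencing from the poly(A) tail, so counts are not scaled by transcript length and levels are not compared between genes. The 6 libraries held 5894561 to 6652846 counts. The primed libraries had a count for 19634 to 19987 genes and the 50 µM libraries for 18498 to 19051. The first principal component of the 1000 most variable genes, with 79.2% of the variance, placed the primed libraries at -61.7 to -57.5 and the 50 µM libraries at 19.05 to 21.1. The second, with 9.44%, placed the 50 µM libraries at -20.6 to -14.4 and the 2i libraries at 13.97 to 18.1. Replicate 1 stood apart in both groups: the chi-square per degree of freedom between its counts and those of the other replicates was 9.93 to 11.7, against 2.48 and 6.64 between replicates 2 and 3. The same held in 2i alone and at 25 µM, with 8.82 to 11.3 against 3.11 and 3.84. On the third component, with 2.34% of the variance, replicate 1 of all 4 groups lay at 6.48 to 10.4. All other libraries lay at -6.65 to -0.89 on it. The 10 embryonic stem cell markers summed to 4317 to 5023 CPM, the counts of a gene scaled to a common library size, in the primed libraries and 4579 to 5242 at 50 µM. The label primed was only partly borne out by markers: the primed libraries held the embryonic stem cell genes Nanog and Zfp42 and the formative genes Otx2 and Dnmt3b, but only 59 counts of Fgf5, a defining gene of the formative and primed epiblast. Of 10 fibroblast and feeder markers, Lum, Dcn and Postn had no count in any of the 6 libraries, and the sum of the 10 was 175, 57.7 and 61.2 CPM in primed replicates 1, 2 and 3 and 2.09 to 5.18 CPM at 50 µM.

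Of the 13230 genes, 5859 differed between 50 µM and primed at an adjusted p below 0.05 (44.3%), with 2985 higher (22.6%) and 2874 lower (21.7%) at 50 µM. The median log2 fold change over all genes tested was 0.03 and the median absolute change was 0.37. The sides were uneven among large changes: 815 genes were at least 2-fold higher (6.16%) and 1421 at least 2-fold lower (10.7%), and 216 and 648 passed 4-fold. With genes ranked by level and cut into 4 equal bins, the lowest bin held 406 of the 2-fold rises and 843 of the 2-fold falls, and the highest bin 69 and 66. Every 50 µM library lay above every primed library for 3541 genes (26.8%) and below for 3350 (25.3%). In bulk RNA of this kind, fewer cells of a type and less RNA per cell cannot be told apart. Throughout, rose and fell mean an adjusted p below 0.05 in edgeR's quasi-likelihood test, log2 values are fold changes of 50 µM over primed with their standard error unless another contrast is named, and CPM values with ± are means and SD of 3 libraries.

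**Figure D1:**
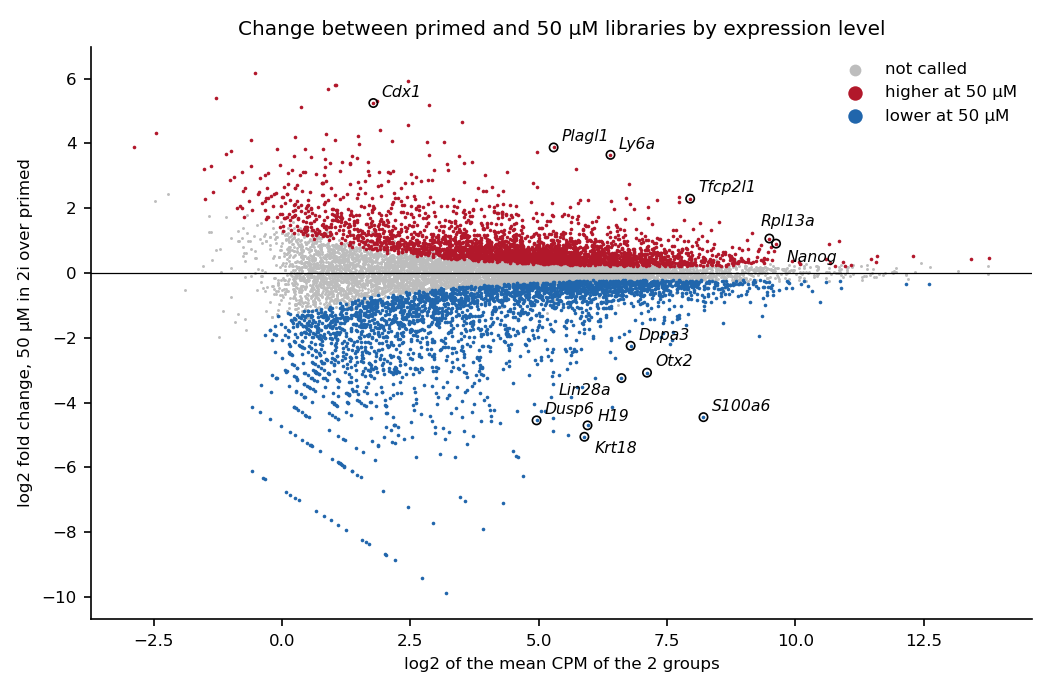
Log2 fold change of 50 µM in 2i over primed cells against the log2 of the mean CPM of both groups, 1 point a gene; red and blue points passed an adjusted p of 0.05 as higher or lower, grey points did not, and 13 genes are named. The diagonal streaks at low level are genes with 0 or few counts in 1 group, whose fitted fold depends on the prior count; large falls are more frequent than large rises.

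Of genes whose log2 CPM averaged 3 or more over both groups, the 10 that rose most were genes that the primed libraries held at 3.36 to 28.01 CPM. Plagl1, an imprinted zinc finger gene (chromosome 10, 13060504 to 13131694; this and other positions are on GRCm38), was at 4.51, 4.54 and 5.92 CPM in the primed libraries and 59.4, 86.1 and 74.8 CPM at 50 µM. The groups did not overlap, and Plagl1 rose by 3.88 ± 0.23 on the log2 scale (adjusted p 1.52e-09). Ly6a, which encodes the surface protein Sca-1 (chromosome 15, 74994877 to 74998031), was at 14.3, 11.1 and 12 CPM in primed and 126, 168 and 175 CPM at 50 µM, a rise of 3.65 ± 0.17 (adjusted p 5.66e-12). Ly6a was higher still in 2i alone, at 274 CPM, and 50 µM was below 2i alone (log2 -0.81 ± 0.13, adjusted p 4.99e-04). The homeobox genes Meis2 and Crxos rose by 3.74 ± 0.16 and 3.20 ± 0.12. The aquaporin gene Aqp3, the metalloprotease gene Mep1b, the Wnt5a receptor gene Ror2 and Spic, which encodes an ETS family factor, rose by 2.74, 2.78, 2.67 and 2.64. Ttc28 and Igdcc3 completed the 10 largest rises, at 3.12 and 3.01. Against 2i alone, Crxos and Spic were lower at 50 µM (-0.67 ± 0.09 and -0.62 ± 0.11) and Mep1b was higher (0.64 ± 0.11, adjusted p 5.50e-05, 8.51e-04 and 6.20e-04).

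The 10 largest falls by the same rule held epithelial, calcium-binding, imprinted and ERK-regulated genes. The simple-epithelium keratin gene Krt18 (chromosome 15, 102028180 to 102032027) was at 183, 87.1 and 75.7 CPM in primed and 3.88, 2.69 and 3.88 CPM at 50 µM, a log2 fold change of -5.05 ± 0.43 (adjusted p 5.08e-06). Its partner Krt8 was at 98.5, 55.3 and 44.7 CPM in primed and 4.41, 1.79 and 4.21 CPM at 50 µM (-4.27 ± 0.40). Primed replicate 1 was the highest library for both keratins, and without it the changes were -4.55 and -3.86. Esrp1, an epithelial splicing regulator, went from 92.2 ± 16.04 to 2.85 ± 0.272 CPM (-5.004 ± 0.19). H19, an imprinted noncoding RNA (chromosome 7, 142575529 to 142578143), was at 114, 133 and 112 CPM in primed and 3.35, 5.37 and 4.86 CPM at 50 µM, with no overlap and a log2 fold change of -4.70 ± 0.25 (adjusted p 9.84e-10). The calcium-binding S100a6 went from 568 ± 33.2 to 25.8 ± 10.1 CPM (-4.45 ± 0.21). Enpp3, Dusp6, Pou3f1, Plac8 and Slc7a7 fell too (-4.87, -4.55, -4.47, -4.27 and -4.27); part of the Slc7a7 counts may come from Oxa1l, which overlaps it.

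Some genes had no count at 50 µM. Of the genes tested or not, 34 had at least 30 counts over the 3 primed libraries and 0 over the 3 at 50 µM, and 0 genes had the reverse pattern. With a floor of 3 counts over the group, the guanylate-binding protein gene Gbp2b (347 counts in primed) was at least 116-fold lower, and its neighbour Gbp3 (111 counts) at least 37.2-fold lower. Psmb8, an immunoproteasome subunit (172 counts), Tmem54 (151 counts) and Ccn4, a Wnt-induced matricellular gene (118 counts), were at least 57.7-fold, 50.6-fold and 39.6-fold lower. Enpp2, which encodes the secreted enzyme autotaxin (89 counts), and the interferon-induced ubiquitin-like gene Isg15 (80 counts) were at least 29.8-fold and 26.8-fold lower. Fgf5 (59 counts) was at least 19.8-fold lower.

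**Figure D2:**
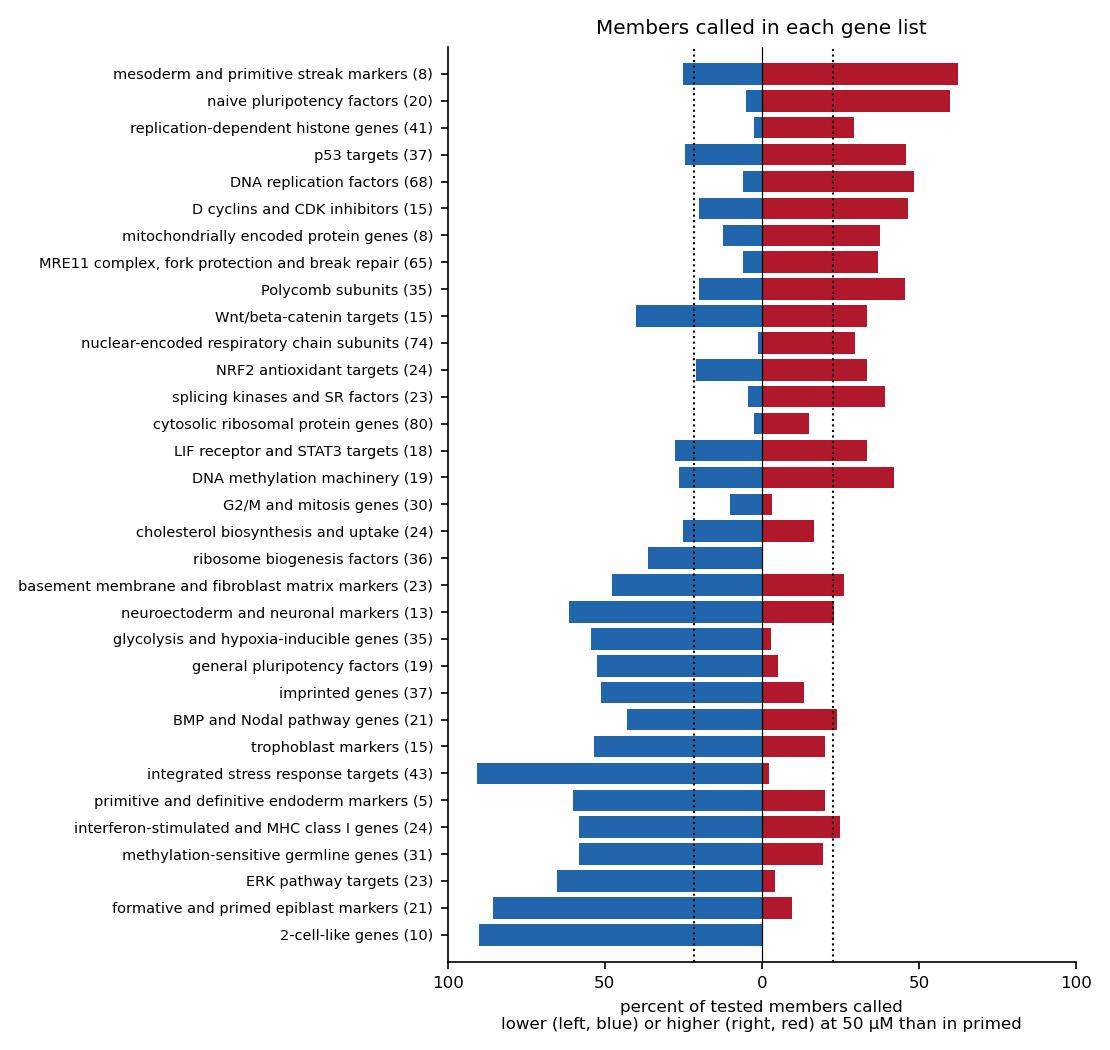
Percent of the tested members of each of 33 gene lists that were called lower (blue, left) or higher (red, right) at 50 µM than in primed cells, with the number of members tested in brackets and lists ordered by their median log2 fold change. Dotted lines mark the percent called over all 13230 genes, 21.7% lower and 22.6% higher; naive factors and mesoderm markers have the largest shares of rises, and 2-cell-like, stress response and formative genes the largest shares of falls.

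Naive pluripotency factors were mostly higher at 50 µM. Of 20 tested, 12 rose, 1 fell and 7 did not pass the test, with a median log2 fold change of 0.57, and 2 fell without 50 µM replicate 1. Tfcp2l1, a transcription factor of the LIF-STAT3 circuit (chromosome 1, 118627945 to 118685168), was at 82.5, 86.4 and 83.04 CPM in primed and 391, 445 and 399 CPM at 50 µM. The groups did not overlap and it rose 4.90-fold, by 2.29 ± 0.09 on the log2 scale (adjusted p 1.70e-14). Tbx3, a T-box factor, went from 75.9 ± 16.1 to 350.1 ± 44.9 CPM (2.20 ± 0.13), and Klf4 from 146 ± 18.8 to 423 ± 62.5 CPM (1.54 ± 0.12). Nanog (chromosome 6, 122707489 to 122714633) was at 494, 562 and 594 CPM in primed and 989, 1006 and 1100.2 CPM at 50 µM, a 1.88-fold rise (log2 0.91 ± 0.10, adjusted p 1.13e-07). Prdm14, which represses de novo methylation genes, and the nuclear receptors Nr5a2 and Esrrb rose by 1.19, 0.98 and 0.86, and Klf2 by 0.48. Zfp42, also named Rex1, did not pass the test: it was at 911, 757 and 822 CPM in primed and 1030.0, 746 and 918 CPM at 50 µM, with overlapping groups and a log2 fold change of 0.11 ± 0.13. The 1 naive factor that fell was Dppa3, described with the methylation genes. Against 2i alone 4 of the 20 were lower (8.07% of all genes were) and 1 was higher (7.01%), Klf4 at 0.40. Tfcp2l1 (-0.26, adjusted p 0.0293) and Prdm14 (-0.42, adjusted p 0.0481) were among the lower ones. When 1 library was left out, 1 to 3 were lower and 0 or 1 higher.

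General pluripotency factors fell more often than they rose. Of 19 tested, 1 rose, 10 fell and 8 did not pass, with a median of -0.43. Sox2 (-0.11) was among those not called, at 562, 627 and 607 CPM in primed and 584, 573 and 512 CPM at 50 µM. The few counts assigned to Pou5f1 (8.41 CPM in primed, 7.24 CPM at 50 µM) are uncertain as its level, because its pseudogenes can share its reads. Lin28a, the RNA-binding protein that blocks let-7 maturation (chromosome 4, 134003330 to 134018841), was at 193, 178 and 161 CPM in primed and 21.5, 16.6 and 18.3 CPM at 50 µM, a log2 fold change of -3.24 ± 0.13 (adjusted p 2.30e-14). Its paralog Lin28b fell by 1.73 ± 0.17. Utf1, a chromatin factor of pluripotent cells, fell from 351 ± 24.5 to 114 ± 7.497 CPM (-1.61 ± 0.15) but was higher than in 2i alone, by 0.71 ± 0.16 (adjusted p 0.00743). The 1 rise, Zscan10 at 0.33, lost its call without primed replicate 1 or 2 or without 50 µM replicate 1 or 2.

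Formative and primed epiblast genes fell broadly: 18 of 21 tested were lower, 2 were higher and 1 did not pass, with a median of -2.63. Otx2, a homeobox factor of the formative epiblast (chromosome 14, 48657677 to 48673819), was at 210.1, 263 and 269.7 CPM in the primed libraries and 28.02, 27.9 and 32.05 CPM at 50 µM. The groups did not overlap and the log2 fold change was -3.08 ± 0.12 (adjusted p 1.70e-14). It was also below 2i alone, where it was at 44.5, 38.9 and 40.3 CPM (-0.49 ± 0.12, adjusted p 0.00835). The POU factor Pou3f1, also named Oct6, was at 83.6, 70.1 and 68.7 CPM in primed and 2.82, 4.33 and 2.75 CPM at 50 µM (-4.47 ± 0.23). The transcription factor genes Sox4, Tcf15 and Lef1 fell as well (-3.15, -2.43 and -3.01). Car4 had 443 counts in primed and 3 at 50 µM and was 148-fold lower (exact 95% interval of the ratio of counts 50.5 to 723). The members that rose were Tcf7l1, the factor that represses pluripotency genes until beta-catenin releases it, from 184 ± 27.9 to 326 ± 28.9 CPM (0.83 ± 0.10), and Nkx1-2, with 1 count in primed and 75 at 50 µM, 74.6-fold higher with an exact 95% interval of 12.98 to 2984.

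Genes that ERK signalling induces were mostly lower: of 23 tested, 15 fell, 1 rose (2 without primed replicate 1) and 7 did not pass (median -1.48). Dusp6, the ERK phosphatase used as a readout of the pathway (chromosome 10, 99263231 to 99267489), was at 78.01, 53.1 and 47.99 CPM in primed and 3.52, 2.54 and 1.62 CPM at 50 µM, a log2 fold change of -4.55 ± 0.27 (adjusted p 1.22e-10). Egr1, an immediate early transcription factor, was at 32.3, 49.3 and 60.9 CPM in primed and 0.705, 0.895 and 1.13 CPM at 50 µM (-5.67 ± 0.28). Spry4, a feedback inhibitor of the pathway, had 569 counts in primed and 2 at 50 µM and was 286-fold lower (exact 95% interval of the ratio of counts 78.9 to 2369). The phosphatase gene Dusp4 fell by 4.86 and Myc by a log2 fold change of -2.36. Not every target was low: Ccnd1, which encodes cyclin D1, was at 152, 118 and 139 CPM in primed and 152, 158 and 161 CPM at 50 µM (0.20 ± 0.10, not called), and Ier2 at 116 ± 21.4 and 116 ± 11.7 CPM (-0.01 ± 0.16). The laminin gene Lamc1 rose, by 0.58 ± 0.11.

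Targets of beta-catenin divided. Of 15 tested, 5 rose, 6 fell and 4 did not pass, with a median of 0.20. Axin2, a feedback inhibitor of the pathway (chromosome 11, 108920349 to 108950783), was at 10.4, 9.58 and 12.6 CPM in primed and 17.1, 25.2 and 22.8 CPM at 50 µM, a rise of 1.000 ± 0.17 (adjusted p 6.13e-05). It was higher in 2i alone, at 30.9, 37.4 and 40.97 CPM, and 50 µM was below 2i alone (-0.74 ± 0.15, adjusted p 0.00211). The caudal homeobox gene Cdx1 had 3 counts in primed and 127 at 50 µM, a 42.1-fold rise with an exact 95% interval of 14.1 to 206.8. Notum, a secreted Wnt deacylase, rose by 1.56 ± 0.11. Lef1, a beta-catenin partner, and Ascl2 fell (-3.01 and -3.20). CTTTGA, the core of the TCF and LEF binding motif, is present on either strand of the RefSeq promoter window (250 bases before to 50 after a start, GRCm38.p6) of 6 of the 15 listed members that have one, and of 18.2% of 27025 genes. These 15 are not the 15 tested. The 6 are Lef1, which fell, Tnfrsf19, which rose, Sp5, which was not called, and Sp8, Dkk1 and T, which were not tested.

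Among 18 genes of the LIF receptor and STAT3, 6 rose, 5 fell and 7 did not pass (median 0.04), and 3 rose without primed replicate 3. In either direction 61.1% of them were called, against 44.3% of all genes tested, of which 22.6% rose and 21.7% fell. Socs3, the inhibitor that STAT3 induces, was at 119.8, 139 and 125 CPM in primed and 83.5, 121 and 91.1 CPM at 50 µM, a log2 fold change of -0.37 ± 0.11 that lost its call without primed replicate 2 or 50 µM replicate 1 (adjusted p up to 0.0584). The gap junction gene Gja1 went from 90.7 ± 4.72 to 27.5 ± 2.97 CPM (-1.72 ± 0.11) and was also below 2i alone (-0.79 ± 0.11, adjusted p 5.50e-05). The kinase gene Pim3 fell by 1.40, and Klf4 and Tfcp2l1, also on this list, rose. TTCNNNGAA, the STAT3 motif, is in the promoter window of 2 of 16 members with a RefSeq promoter and of 9.55% of 27025 genes. Of 21 BMP and Nodal pathway genes, 9 fell, 5 rose and 7 did not pass (median -0.46). Id1, a BMP-induced inhibitor of helix-loop-helix factors, was at 127, 75.2 and 74.8 CPM in primed and 5.99, 6.56 and 7.12 CPM at 50 µM (-3.81 ± 0.24, adjusted p 2.12e-09). Lefty1, which antagonises Nodal, and the transcriptional repressor Skil fell (-3.40 and -1.84), as did the phosphatase gene Dusp9 (-2.67). The ligand gene Nodal itself rose, from 33.7, 31.3 and 35.4 CPM to 80.4, 69.96 and 79 CPM (1.19 ± 0.11).

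The DNA methylation genes changed in both directions. Of 19 tested, 8 rose, 5 fell and 6 did not pass (median 0.01). Of the de novo methyltransferases and their cofactor, Dnmt3b (chromosome 2, 153649450 to 153687730) was at 337, 316 and 292 CPM in primed and 79.8, 72.3 and 71.1 CPM at 50 µM (-2.08 ± 0.11, adjusted p 1.70e-12). Dnmt3a fell by 2.63 ± 0.13 and Dnmt3l by a log2 fold change of -2.19 ± 0.13, with no overlap between groups for either. Of the genes that maintain methylation, Uhrf1, which brings DNMT1 to hemimethylated DNA (chromosome 17, 56303321 to 56323486), was at 108, 109 and 108 CPM in primed and 225, 207 and 183 CPM at 50 µM, a rise of 0.92 ± 0.09 (adjusted p 4.31e-08), and Dnmt1 went from 144 ± 15.6 to 202 ± 12.1 CPM (0.48 ± 0.10). Uhrf1 was also above 2i alone, by 0.61 ± 0.09 (adjusted p 1.13e-04). Of the TET dioxygenases that oxidise methylcytosine, Tet2 rose by 0.97 ± 0.12, and Tet1 at -0.22 and Tet3 at -0.31 did not pass. The members Gadd45a and Gadd45g, damage-inducible genes linked to demethylation, fell (-2.70 and -4.57).

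Methylation-sensitive germline genes were mostly lower at 50 µM, against primed and against 2i alone. Of 31 tested members of 40 listed, 18 fell, 6 rose and 7 did not pass against primed cells (median -1.16), and 16 fell and 0 rose against 2i alone (median -0.93), with 14 to 18 falls when 1 library was left out. The edgeR test of 50 µM against 2i alone called 1994 of 13230 genes (15.1%), 927 higher (7.01%) and 1067 lower (8.07%). It called 3240 genes once the replicate number was added to the model as a block, although the labels do not say that the number pairs libraries. With this block 20 germline genes fell and 1 rose. Between 2i alone and primed 5346 genes were called (40.4%; 20.0% higher and 20.4% lower), and germline genes gave 13 rises and 11 falls. Dppa3, also named Stella, which keeps UHRF1 off chromatin and marks germ cells and naive cells (chromosome 6, 122626410 to 122630272), was at 155, 203 and 192 CPM in primed, 102, 147 and 122 CPM in 2i alone and 24.7, 43.1 and 47.6 CPM at 50 µM. All 50 µM libraries lay below all others of these groups (log2 -2.25 ± 0.22 against primed and -1.68 ± 0.22 against 2i alone, adjusted p 7.33e-06 and 5.81e-04). The homeobox gene Rhox5 was at 300.4, 354 and 361 CPM in primed, 394, 424 and 475 CPM in 2i alone and 139.9, 163 and 121 CPM at 50 µM (-1.26 ± 0.13 against primed and -1.60 ± 0.13 against 2i alone). Sycp3, of the synaptonemal complex, fell against primed and 2i alone (-2.93 and -1.54) and may share counts with the overlapping Chpt1. Mael, of the piRNA pathway, fell by 2.62 against primed. Dazl, a germ cell RNA-binding protein (chromosome 17, 50279395 to 50293636), had the opposite order against primed: it was at 37.9, 27.7 and 34.7 CPM in primed, 227, 288 and 291 CPM in 2i alone and 62.7, 119.9 and 90.7 CPM at 50 µM, so that it rose by 1.45 ± 0.29 against primed and was lower than in 2i alone (-1.56 ± 0.27, adjusted p 0.00254 and 0.00427).

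Imprinted genes also fell more often than they rose: of 37 tested, 19 fell, 5 rose and 13 did not pass (median -0.44). Peg10, a paternally expressed gene of retrotransposon origin (chromosome 6, 4747306 to 4760517), was at 175, 163 and 154 CPM in primed and 6.52, 10.6 and 10.8 CPM at 50 µM (-4.12 ± 0.16, adjusted p 1.21e-13). The growth-limiting genes Phlda2 and Cdkn1c fell (-3.43 and -3.12), as did Snrpn (-1.96) and Nnat (-4.57), which overlaps Blcap. Rian, a noncoding RNA of the Dlk1-Dio3 domain, was at 32.5, 28.6 and 26.02 CPM in primed, 18.9, 14.1 and 17.6 CPM in 2i alone and 43.2, 57.1 and 53.6 CPM at 50 µM. It rose by 0.82 ± 0.16 against primed and by 1.61 ± 0.17 against 2i alone (adjusted p 2.72e-04 and 3.27e-06).

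Genes of the 2-cell-like state, which a small share of embryonic stem cells express at any time, had few or no counts at 50 µM apart from Eif1a. Of 24 genes listed, 10 passed the count filter over all 12 libraries; 9 of these fell and 0 rose. The 9 passed the filter through their counts in primed and 2i libraries, so the direction is in part fixed by the filter and the tally is a description. Zscan4c had 44 counts in the primed libraries and 1 at 50 µM, and Zscan4d 25 and 0, at least 8.38-fold lower with a floor of 3 counts. Sp110 had 42 and 2 counts and Tmem92 31 and 1. Against 2i alone 9 fell as well, and between 2i alone and primed 0 of the 10 passed in either direction. In a fit to the primed and 50 µM libraries only, 2 of the 10 passed the count filter, of which Sp110 fell and Eif1a was not called, and the other 8 were not tested. Eif1a, the member with most counts, was at 239.5 ± 5.79 and 225 ± 11.6 CPM and did not pass the test.

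**Figure D3:**
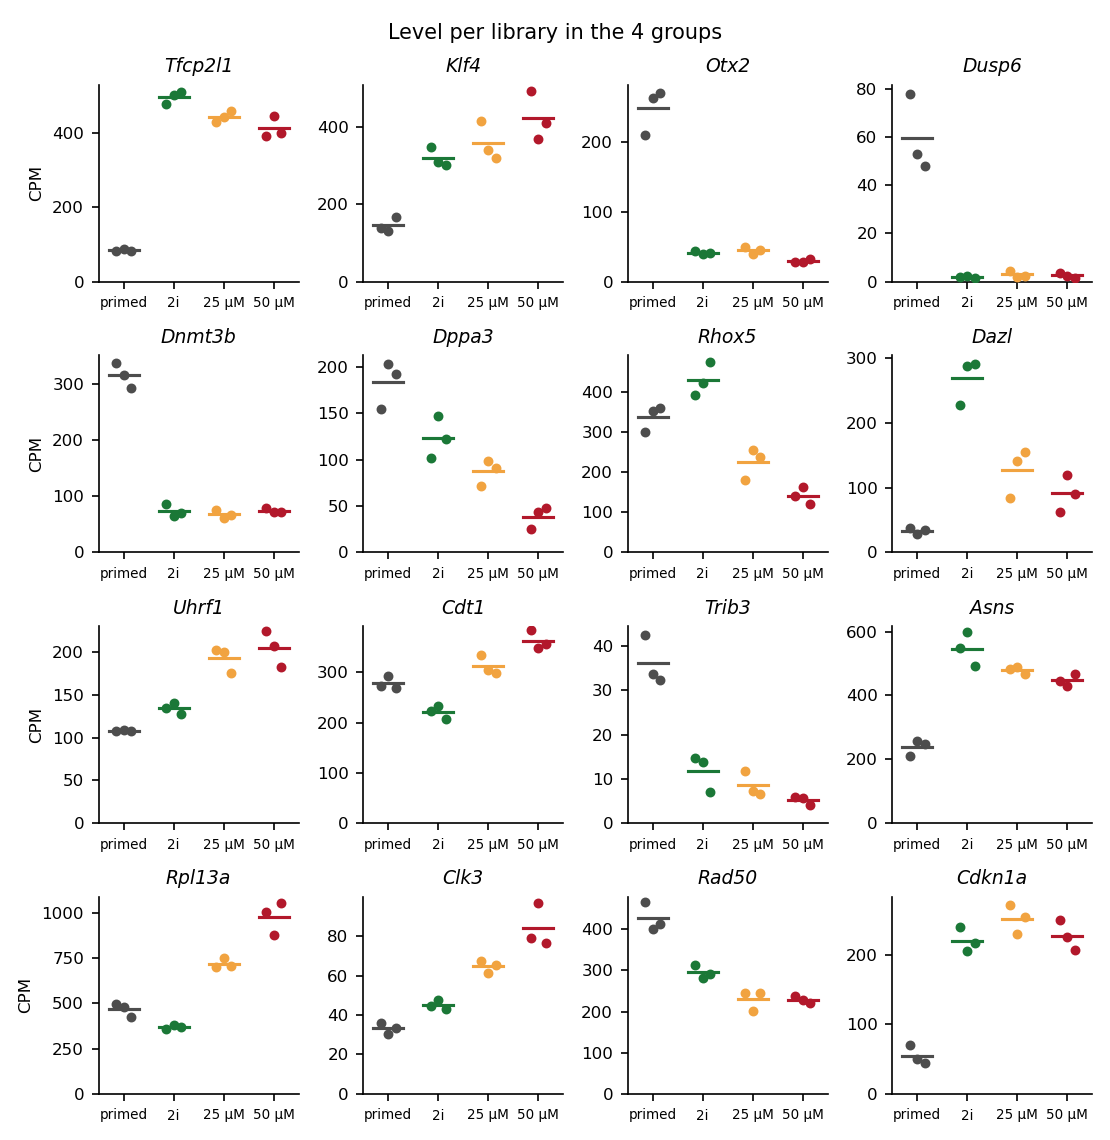
CPM on linear axes from 0 of 16 genes in every primed, 2i, 25 µM and 50 µM library, 1 point a library, with a bar at the mean of each group. Otx2, Dusp6 and Dnmt3b are low in all groups with 2i, Dppa3 and Rhox5 are lowest at 50 µM, and Cdt1 and Rpl13a are highest there.

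Polycomb subunits changed in both directions. Of 35 tested, 16 rose, 7 fell and 12 did not pass (median 0.21), with 13 to 15 rises when 1 library was left out. Bmi1, also named Pcgf4, of canonical PRC1 (chromosome 2, 18677018 to 18686629), was at 4.51, 4.20 and 4.67 CPM in primed and 23.97, 26.6 and 26.6 CPM at 50 µM, a rise of 2.52 ± 0.17 (adjusted p 1.12e-10). Of the CBX genes, which read H3K27 methylation, Cbx8 rose by 2.97 ± 0.31 and Cbx2 by 0.38 ± 0.13, the latter losing its call without primed replicate 1 or 2 or 50 µM replicate 2 or 3. Cbx7, the main CBX gene of embryonic stem cells, was at 242 ± 10.02 and 214 ± 13.7 CPM (-0.18 ± 0.08, not called). Phf19, an accessory subunit of PRC2, was at 16.6, 19 and 15.6 CPM in primed and 1.23, 0 and 0.648 CPM at 50 µM (-4.79 ± 0.38), while Phc1 of PRC1 and Bcor of variant PRC1 fell (-1.02 ± 0.09 and -1.31 ± 0.13). Of the PRC2 core, Ezh2 at 0.09 ± 0.11 and Suz12 at 0.39 ± 0.17 did not pass, and Eed rose by 0.27 ± 0.10, a call lost without primed replicate 1 or 2 or 50 µM replicate 1.

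DNA replication factors were more often higher than lower, by small folds. Of 68 tested, 33 rose (22.6% of all genes did), 4 fell and 31 did not pass, with a median of 0.29. Between 26 and 33 rose when 1 library was left out. Of the MCM2-7 helicase, 5 of 6 subunits rose, by 0.39 to 0.57, and Mcm7 at 0.22 ± 0.12 did not pass. Mcm2 (chromosome 6, 88883474 to 88898780) was at 247, 251 and 245 CPM in primed and 324, 332 and 314 CPM at 50 µM, a rise of 0.39 ± 0.08 (adjusted p 6.59e-04). Cdt1, which loads the helicase onto origins (chromosome 8, 122568015 to 122573554), was at 273, 293 and 269 CPM in primed, 224, 232 and 207 CPM in 2i alone and 383, 348 and 356 CPM at 50 µM, with rises of 0.38 ± 0.08 against primed and 0.71 ± 0.08 against 2i alone (adjusted p 8.16e-04 and 9.10e-06). Gins2, of the GINS part of the helicase, rose by 0.80 ± 0.09 and the transcription factor E2f1 by 0.92 ± 0.13; Gins2 overlaps Gse1. Rrm2, the regulated subunit of ribonucleotide reductase, rose by 0.60 ± 0.09 and the ligase Lig1 by 0.65 ± 0.14. Cyclin E1 went the other way: Ccne1 (chromosome 7, 38097984 to 38107534) was at 264, 247 and 240.4 CPM in primed and 92.2, 103 and 98.4 CPM at 50 µM, a log2 fold change of -1.35 ± 0.09 (adjusted p 5.51e-11), and was below 2i alone (-0.52 ± 0.09, adjusted p 3.96e-04). The origin recognition complex had 1 rise, Orc1 at 0.38 ± 0.10, and 2 falls, Orc4 at -0.33 ± 0.10 and Orc2 at -0.30 ± 0.10, of 6; the call of Orc2 was lost without primed replicate 1 or 50 µM replicate 2. Against 2i alone 13 replication factors were higher and 3 lower, and 25 and 5 with the replicate block; 8 were higher without 50 µM replicate 1.

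Of the 3 genes of the complex that holds MRE11, 1 fell and 0 rose. Mre11a, the gene of the MRE11 nuclease (chromosome 9, 14784654 to 14837123), was at 61.4, 59.2 and 62.9 CPM in primed and 51.5, 49.97 and 53.1 CPM at 50 µM, a log2 fold change of -0.25 ± 0.10 that missed the threshold in edgeR (adjusted p 0.0538). It passed in 4 of 12 alternative settings: under DESeq2 (adjusted p 0.0461), with RLE size factors (0.0336), in a fit of these 2 groups alone (0.0407) and with a replicate block (0.0236). The labels do not say that the replicate numbers pair libraries. It did not pass with limma voom (0.0518), without the count filter (0.12) or without any 1 of the 6 libraries (0.0526 to 0.146). Mre11a overlaps Ankrd49, so their counts may be mixed. Rad50, the ATPase of the complex (chromosome 11, 53649519 to 53707319), was at 465, 400.5 and 413 CPM in primed, 314, 281 and 292 CPM in 2i alone and 237, 228 and 222 CPM at 50 µM. The 50 µM libraries did not overlap the primed ones, and Rad50 fell by 0.90 ± 0.09 on the log2 scale against primed (adjusted p 7.40e-08). It was also below 2i alone (-0.37 ± 0.09, adjusted p 0.00973). Nbn, the third member, was at 27.2, 28.2 and 33.96 CPM in primed and 32.1, 30.7 and 30.6 CPM at 50 µM (0.06 ± 0.13, not called). These are transcript levels, and the activity of the enzyme was not measured here.

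Of 65 genes of this complex, fork protection and break repair, 24 rose, 4 fell and 37 did not pass (median 0.23), with 18 to 22 rises when 1 library was left out and 2 falls without primed replicate 2. Of all genes tested 22.6% rose and 21.7% fell. In either direction 43.1% of this list was called, near the 44.3% of all genes tested. Timeless, of the fork protection complex, went from 71.98 ± 3.998 to 116 ± 10.7 CPM (0.69 ± 0.10) and was above 2i alone by 0.60 ± 0.10 (adjusted p 3.39e-04). Rad54l, a motor of homologous recombination, rose by 0.60 ± 0.09 and Fancm, a fork-remodelling helicase, by 0.80 ± 0.11. Of 10 Fanconi anaemia genes 4 rose and 0 fell (22.6% and 21.7% of all genes did). The resection factor Rbbp8, also named CtIP, rose by 0.59 ± 0.13, and the fork remodeller Zranb3 by 0.68 ± 0.13. Xrcc5, the Ku80 gene of end joining, fell by 0.49 ± 0.09. Checkpoint kinase genes differed: Chek1 rose by 0.53 ± 0.10, and Atr at -0.06 ± 0.11 and Atm at 0.14 ± 0.22 did not pass.

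Genes of G2 and mitosis had few calls: of 30 tested, 1 rose, 3 fell and 26 did not pass, with a median of -0.01. The calls depended on single libraries, with 0 to 3 rises and 2 to 5 falls when 1 library was left out. Hmmr, a spindle-associated receptor gene, fell by 0.68 ± 0.11, and the cyclin B1 gene Ccnb1 was at 394 ± 10.5 and 373 ± 18 CPM (-0.08 ± 0.08). Of 15 D cyclins, CDK inhibitors and partners, 7 rose, 3 fell and 5 did not pass (median 0.27). Ccnd2, cyclin D2, was at 26.4, 12.3 and 14.3 CPM in primed and 1.94, 1.04 and 0.971 CPM at 50 µM (-3.75 ± 0.51), Cdkn1b, the p27 inhibitor, rose by 0.73 ± 0.09, and Cdkn1c, the p57 inhibitor, fell by 3.12.

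Of 37 p53 targets, 17 rose, 9 fell and 11 did not pass (median 0.32). Cdkn1a, the p21 inhibitor of CDKs (chromosome 17, 29090976 to 29100727), was at 70.4, 50.1 and 44.1 CPM in primed and 249.7, 226 and 207 CPM at 50 µM, a 4.14-fold rise (log2 2.05 ± 0.13, adjusted p 4.68e-10). In 2i alone it was at 239, 206 and 216 CPM, and the difference of 50 µM from 2i alone was 0.05 ± 0.12 (not called). Sesn1, a stress sensor of mTORC1, and Phlda3, an AKT inhibitor, rose by 1.498 ± 0.16 and 0.995 ± 0.12; Sesn1 overlaps another transcript. Mdm2, the ligase that degrades p53, rose by 0.28 ± 0.09, a call lost without primed replicate 2 or 50 µM replicate 1 or 2. Of the apoptotic targets, Bbc3, also named Puma, fell by 0.55 ± 0.11 and Bax at 0.08 ± 0.47 did not pass.

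Replication-dependent histone genes, whose mature mRNAs lack a poly(A) tail and which an oligo-dT library therefore samples only in part, were more often higher than lower at 50 µM. Of 41 tested members of 60, 12 rose, 1 fell and 28 did not pass against primed (median 0.44), with 8 to 13 rises when 1 library was left out and 2 falls without 50 µM replicate 3. In either direction 31.7% of these members were called against primed, and 44.3% of all genes tested were. Against 2i alone 22 were higher and 0 lower (median 1.23), 27 with the replicate block, and between 2i alone and primed 19 fell and 0 rose (median -0.85). The sum over the list was 212 to 272 CPM in the primed libraries, 135 to 178 in 2i alone, 195 to 243 at 25 µM and 303 to 354 at 50 µM, so the 50 µM libraries lay above all others of the series. Hist1h3d was at 7.77, 4.37 and 5.30 CPM in primed, 4.61, 5.30 and 12.7 CPM in 2i alone and 33.5, 32.4 and 27.2 CPM at 50 µM (2.40 ± 0.30 against primed, 2.05 ± 0.29 against 2i alone). Hist1h2ae and Hist1h4i rose by 0.98 ± 0.16 and 1.04 ± 0.17 against primed and by 2.07 and 1.87 against 2i alone. The linker histone gene Hist1h1d fell by 1.56 ± 0.27. Whether more histone transcripts carried a poly(A) tail was not tested.

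The integrated stress response list had the largest share of falls among the lists with over 20 tested members. This programme, driven by ATF4, raises amino acid synthesis, import and tRNA charging. Of 43 tested, 39 fell, 1 rose and 3 did not pass (median -0.90), with 36 to 38 falls when 1 library was left out. The promoter windows of 4 members with the C/EBP-ATF response element TGATGNAA, to which ATF4 binds as a dimer, are shown because the genes differ in direction: Nupr1, Chac1 and Atf3 fell and Asns rose. They are RefSeq promoters of GRCm38.p6, the 250 bases before each start, with the element on either strand in capitals.
Nupr1, chr7:126625471-126625720, minus strand: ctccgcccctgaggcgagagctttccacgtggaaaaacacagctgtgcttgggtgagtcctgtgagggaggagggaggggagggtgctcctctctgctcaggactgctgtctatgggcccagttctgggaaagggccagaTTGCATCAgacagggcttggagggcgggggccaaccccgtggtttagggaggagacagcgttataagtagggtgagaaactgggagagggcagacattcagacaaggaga
Chac1, chr2:119350992-119351241, plus strand: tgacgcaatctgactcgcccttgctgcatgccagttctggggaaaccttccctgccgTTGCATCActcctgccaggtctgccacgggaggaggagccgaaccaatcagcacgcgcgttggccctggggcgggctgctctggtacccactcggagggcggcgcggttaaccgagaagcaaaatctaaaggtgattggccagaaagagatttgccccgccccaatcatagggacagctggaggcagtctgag
Atf3, chr1:191183334-191183583, minus strand: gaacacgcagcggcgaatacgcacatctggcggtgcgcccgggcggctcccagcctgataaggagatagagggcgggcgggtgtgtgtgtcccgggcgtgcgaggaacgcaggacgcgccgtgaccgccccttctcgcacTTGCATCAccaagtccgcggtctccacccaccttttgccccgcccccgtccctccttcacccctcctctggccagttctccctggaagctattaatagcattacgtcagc
Asns, chr6:7693210-7693459, minus strand: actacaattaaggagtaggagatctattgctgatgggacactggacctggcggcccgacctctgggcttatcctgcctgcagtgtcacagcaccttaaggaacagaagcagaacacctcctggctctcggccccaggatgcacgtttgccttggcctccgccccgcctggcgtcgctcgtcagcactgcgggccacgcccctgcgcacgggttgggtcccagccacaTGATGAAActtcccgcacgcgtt
The element begins 110 bases before the start in Nupr1 and in Atf3, 193 before it in Chac1 and 23 before it in Asns. It was found in the window of 14 of 36 members with a RefSeq promoter, 45 being listed, and of 4.51% of 27025 genes; a match is a description of these letters and not of binding. Chac1 and Atf3 were chosen after their values were seen.

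Among the transcription factors of the programme, all 7 fell (log2 -3.69 to -0.34). Atf4 itself went from 395 ± 86.5 to 212 ± 15.8 CPM (-0.90 ± 0.25), a call lost without primed replicate 1 or 50 µM replicate 3, and the calls of Atf5 and Cebpg were also lost without some libraries. Ddit3, also named Chop, fell from 29.99, 22.5 and 22.4 CPM to 6.17, 7.01 and 7.12 CPM (-1.88 ± 0.19); it overlaps Mars. Trib3, a pseudokinase that ATF4 and CHOP induce (chromosome 2, 152337422 to 152344032), was at 42.6, 33.6 and 32.4 CPM in primed, 14.7, 13.8 and 6.94 CPM in 2i alone and 5.99, 5.67 and 4.21 CPM at 50 µM. The groups were ordered without overlap, with log2 fold changes of -2.77 ± 0.26 against primed and -1.17 ± 0.28 against 2i alone (adjusted p 9.43e-08 and 0.00973). Nupr1, a stress-induced chromatin protein (chromosome 7, 126623249 to 126630861), was at 26.3, 28.8 and 26.3 CPM in primed, 10.6, 18.4 and 6.29 CPM in 2i alone and 1.59, 2.83 and 4.70 CPM at 50 µM (-3.14 ± 0.40 against primed, -1.94 ± 0.43 against 2i alone). Chac1, which degrades glutathione, fell from 33.4 ± 9.57 to 1.82 ± 0.745 CPM (-4.21 ± 0.51).

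The enzymes and transporters fell with the factors. All 12 aminoacyl-tRNA synthetase genes were lower (log2 -1.43 to -0.31), with Lars at -1.005 ± 0.08; the call of Wars, the smallest, was lost without primed replicate 2 or 50 µM replicate 1. All 6 serine and one-carbon genes fell (-1.98 to -0.79): Psat1, of serine synthesis, went from 302 ± 21.8 to 114 ± 9.26 CPM (-1.41 ± 0.10), and Mthfd2, of mitochondrial folate metabolism, fell by 1.55 ± 0.12. All 5 amino acid transporter genes fell (-3.35 to -0.48). Ddit4, an inhibitor of mTORC1, was at 157, 159 and 137 CPM in primed and 35.4, 43.6 and 35.9 CPM at 50 µM (-1.98 ± 0.12). Psat1, Mthfd2 and Ddit4 were below 2i alone too (-0.56, -0.64 and -1.22). The 1 exception was Asns, asparagine synthetase (chromosome 6, 7675169 to 7693254), at 211, 258 and 248 CPM in primed, 547, 598 and 492 CPM in 2i alone and 445, 429.7 and 468 CPM at 50 µM, a rise of 0.91 ± 0.09 against primed (adjusted p 6.91e-08). Against 2i alone 17 members of the list were lower and 2 higher, 24 and 2 with the replicate block, and 10 or 11 were lower without 2i replicate 2 or without 50 µM replicate 1 or 2. Between 2i alone and primed 33 fell and 3 rose.

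**Figure D4:**
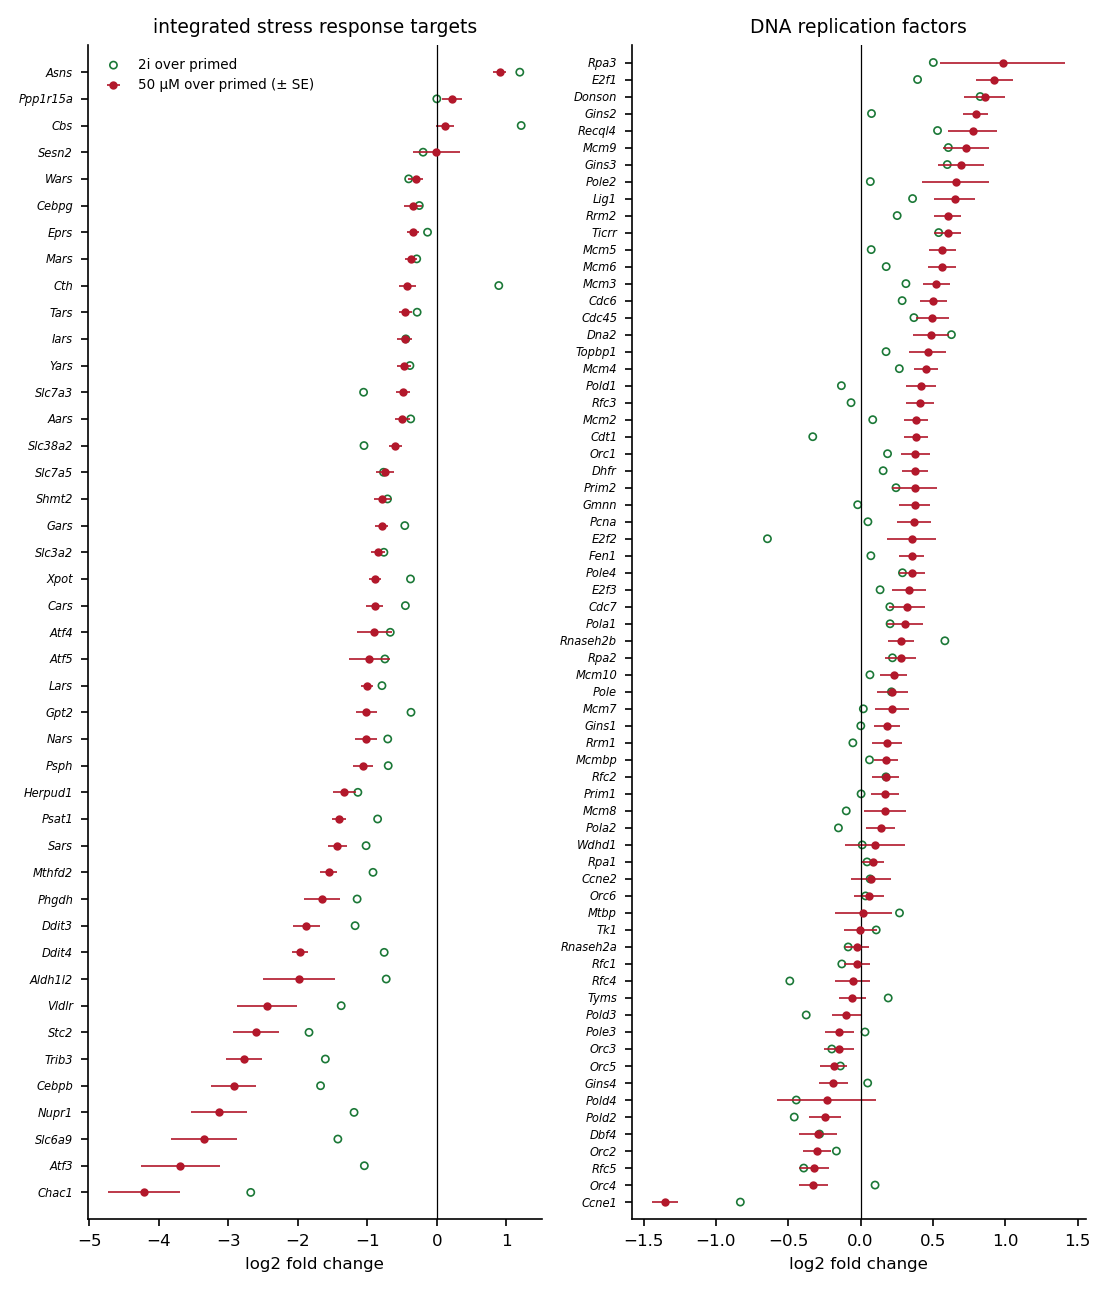
Log2 fold change over primed of the 43 tested genes of the integrated stress response (left) and the 68 of DNA replication (right), 1 line a gene, with filled red points for 50 µM (bar ± SE) and open green points for 2i alone. Both contrasts share the primed libraries. Most stress genes lie left of 0 with Asns at 0.91 on the right, and most replication factors lie right of 0 with Ccne1 farthest left at -1.35.

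Glycolytic and hypoxia-inducible genes fell in part: 19 of 35 tested were lower, 1 was higher (1 to 3 when 1 library was left out) and 15 did not pass (median -0.42). Pdk1, the kinase that shuts pyruvate dehydrogenase, was at 132, 148 and 146 CPM in primed and 24.5, 22.7 and 31.1 CPM at 50 µM (-2.45 ± 0.13, adjusted p 1.60e-12). The mitophagy receptor gene Bnip3 fell by 2.35 ± 0.20 and was below 2i alone (-0.99 ± 0.22), and Pfkl and Tpi1 of glycolysis fell (-1.25 ± 0.12 and -1.01 ± 0.10). The glucose transporter Slc2a1 went from 573 ± 51.9 to 197 ± 44.7 CPM (-1.54 ± 0.18), while Slc2a3 at 0.06 ± 0.10 did not pass. The rise was Hk1, at 0.96 ± 0.12. Of 74 nuclear-encoded respiratory chain subunits, 22 rose (22.6% of all genes did), 1 fell (21.7% of all genes did) and 51 did not pass (median 0.18). Without 50 µM replicate 3 there were 13 rises, and without 50 µM replicate 1 or 3 there were 2 falls. In either direction 31.1% of these subunits were called, against 44.3% of all genes tested. Cox5a and Ndufa13 had the largest rises, from 589 ± 51.2 to 952 ± 22.7 CPM (0.69 ± 0.09) and by 0.69 ± 0.09, followed by Uqcrb and Cox6b1 (0.60 and 0.57). Of 8 tested mitochondrially encoded genes, 3 rose and 1 fell (median 0.25): mt-Cytb, of complex III, was at 10916, 11918 and 12479 CPM in primed and 18493, 14449 and 16152 CPM at 50 µM, a rise of 0.48 ± 0.10 against primed and 0.57 ± 0.10 against 2i alone. The sum of the mitochondrially encoded genes was highest in 50 µM replicate 1, at 59383 CPM against 47677 and 48251 in the others, and 39684 to 42285 in the primed libraries. Its part in other results was not tested.

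Antioxidant genes under NRF2 gave 8 rises and 5 falls of 24 tested (median 0.15), and 3 falls without primed replicate 2. In either direction 54.2% of them were called, against 44.3% of all genes tested, of which 22.6% rose and 21.7% fell. Nqo1, the quinone reductase, was at 16.6, 13.3 and 15.9 CPM in primed and 34.4, 33.1 and 41.1 CPM at 50 µM (1.24 ± 0.13), and malic enzyme Me1 rose by 1.21 ± 0.15. Hmox1, haem oxygenase, fell by 0.86 ± 0.25, and Slc7a11, the cystine transporter, had 19 counts in primed and 0 at 50 µM, at least 6.37-fold lower. TGACNNNGC, the antioxidant response element, is in the promoter window of 8 of 24 members with a RefSeq promoter and of 14% of 27025 genes. Cholesterol genes had 4 rises and 6 falls of 24 (median -0.19), with 1 to 4 rises when 1 library was left out and 3 falls without primed replicate 2. The share called, 41.7%, was near the 44.3% of all genes tested. The largest fall that passed was Dhcr7, of the last step of synthesis (-0.79 ± 0.17).

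Cytosolic ribosomal protein genes changed little against primed: 12 of 80 rose (22.6% of all genes did), 2 fell and 66 did not pass, with a median of 0.11. Rises numbered 24 without 50 µM replicate 2 and 6 without 50 µM replicate 3, and falls 0 to 2 when 1 library was left out. The largest was Rpl13a (chromosome 7, 45125558 to 45128761), at 497, 482 and 424 CPM in primed, 357, 382 and 369 CPM in 2i alone and 1003, 877 and 1052 CPM at 50 µM, a rise of 1.06 ± 0.09 against primed and 1.40 ± 0.09 against 2i alone (adjusted p 3.22e-09 and 1.40e-09). Many ribosomal protein genes have processed pseudogenes that can share their reads. Against 2i alone 24 of 80 rose and 0 fell, 55 with the replicate block, and 7 to 39 when 1 library was left out. Factors that build the ribosome went the other way against primed, with 0 rises and 13 falls of 36 (median -0.22): Heatr1, Pes1 and Rrp9, which act in rRNA synthesis and processing, fell (-0.67 ± 0.08, -0.54 ± 0.09 and -0.57 ± 0.11). Among 23 splicing kinases and SR factors, 9 rose, 1 fell and 13 did not pass (median 0.14). The share called, 43.5%, was near the 44.3% of all genes tested, of which 22.6% rose and 21.7% fell. The rises were led by the CLK kinases, which phosphorylate SR proteins: Clk1 went from 61.1, 66.4 and 73.4 CPM to 139, 106 and 114 CPM (0.84 ± 0.12, and 0.60 ± 0.12 against 2i alone). Clk3 and Clk4 rose by 1.34 ± 0.11 and 0.80 ± 0.13; they overlap Edc3 and BC049762. The SR genes Srsf1, Srsf2 and Srsf3 were at -0.03, 0.07 and 0.14, none called.

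Interferon-stimulated and MHC class I genes fell more often than they rose, with 14 falls, 6 rises and 4 not passing of 24 tested (median -1.09). All 6 genes of the immunoproteasome and of peptide loading fell. Psmb10 was at 85.01, 90.5 and 81.6 CPM in primed and 18.7, 22.5 and 20.2 CPM at 50 µM (-2.06 ± 0.11, adjusted p 3.36e-12), Psmb8 had 172 and 0 counts, and the peptide transporter genes Tap1 and Tap2 fell (-1.89 ± 0.29 and -2.87 ± 0.50). The class I heavy chain gene H2-K1 fell by 1.29 ± 0.20 and the light chain gene B2m rose by 0.52 ± 0.13. Irf1, an interferon-induced transcription factor, fell by 1.72 ± 0.11. Ly6a and Xaf1 had the largest rises on this list, Xaf1 at 1.80 ± 0.16.

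Markers of other lineages were present at differing levels. Summed over each list, neural markers were at 1051 to 1249 CPM in primed and 895 to 958 CPM at 50 µM, trophoblast markers at 388 to 634 and 143 to 186 CPM, mesoderm markers at 236 to 319 and 232 to 289 CPM, and endoderm markers at 139 to 312 and 28.2 to 32.4 CPM. Of the primed and 50 µM libraries, primed replicate 1 was highest for each of these sums. Of 20 endoderm markers 5 passed the count filter, with 3 falls (5 without primed replicate 3 or 50 µM replicate 3) and 1 rise, Hhex at 0.78 ± 0.16. The falls were those of Krt8, Krt18 and Dab2, and the call of Dab2 (log2 -0.97, adjusted p 0.0480) was lost without primed replicate 1 or 2 or 50 µM replicate 1 or 2. Of 20 mesoderm and streak markers 8 passed, with 5 rises and 2 falls (median 0.91), with 3 rises without 50 µM replicate 2 or 3 and 1 fall without primed replicate 3 or 50 µM replicate 3. Besides Meis2, the streak gene Gsc rose from 0.311, 0.504 and 1.40 CPM to 4.76, 3.88 and 7.61 CPM (2.83 ± 0.40) and Snai1 by 1.05 ± 0.25. Mesp2 and Bmp4 of this list fell (-1.72 and -0.51). The sum over all 20 members, most of them not tested, was 267.5 ± 44.6 CPM in primed and 256.6 ± 29.6 CPM at 50 µM. Of 13 neural markers 8 fell and 3 rose: the growth cone gene Gap43 was at 29.7, 21.7 and 19.9 CPM in primed and 0.529, 0.597 and 0.648 CPM at 50 µM (-5.28 ± 0.33), Map1b and Elavl3 fell (-1.34 and -1.70), and the adhesion gene Ncam1 rose from 46.9, 39 and 36.5 CPM to 180.4, 184 and 174 CPM (2.14 ± 0.11). Of 15 trophoblast markers 8 fell and 3 rose. The 4 simple keratins on these lists fell (log2 -5.49 to -4.10), and Tfap2a rose by 2.38 ± 0.27.

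Matrix and fibroblast markers gave 11 falls, 6 rises and 6 not passing of 23 (median -0.28). Lamb1, a basement membrane laminin, was at 116, 102 and 97.5 CPM in primed and 8.11, 10.3 and 8.74 CPM at 50 µM (-3.53 ± 0.15), and was below 2i alone (-1.64 ± 0.16). Thy1, a surface glycoprotein of fibroblasts, had 147 counts in primed and 5 at 50 µM, and Col1a1 483 and 14. The log2 fold change of Thy1 was -4.76 against primed and -4.05 against 2i alone (adjusted p 3.22e-09 and 2.58e-06), so it was not low in 2i alone. Acta2 was at 101, 25.1 and 26.2 CPM in primed replicates 1, 2 and 3 and at most 1.23 CPM at 50 µM. Nid1, another basement membrane gene, rose from 35.9, 30.4 and 38.95 CPM to 166, 181 and 176 CPM (2.31 ± 0.11). With 3 of 10 fibroblast markers at 0 and the rest highest in sum in primed replicate 1, the part of other cells in these falls was not tested.

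Some genes that differ between 2i alone and primed had no called difference at 50 µM. By a rule on calls, 14 genes were at least 2-fold lower in 2i alone than in primed, higher at 50 µM than in 2i alone and not called at 50 µM against primed, and 24 genes had the mirrored pattern. These counts are fixed by the rule and carry no test. Dab1, a reelin adaptor gene, was at 12.3, 13.8 and 10.4 CPM in primed, 3.99, 2.95 and 3.23 CPM in 2i alone and 17.8, 12.4 and 14.6 CPM at 50 µM. E2f8, an atypical E2F repressor, was at 43.98, 42.03 and 45.8 CPM in primed, 17.4, 17.4 and 18.9 CPM in 2i alone and 46.9, 37.7 and 32.2 CPM at 50 µM. In both genes the 2i libraries lay below all libraries of the other 2 groups, and Pipox and Rtn1 were also named by this rule. On the other side, Cbs, which makes cystathionine, was at 20.2, 19.7 and 19.5 CPM in primed, 44.2, 48.02 and 45.3 CPM in 2i alone and 18.1, 25.4 and 20.6 CPM at 50 µM. S100a13, of the S100 calcium-binding family, was at 11.8, 8.74 and 11.8 CPM in primed, 37.3, 34.9 and 29.4 CPM in 2i alone and 13.2, 13.6 and 9.39 CPM at 50 µM. Here the 2i libraries lay above all libraries of the other 2 groups, and Atp2b4 and Pdxk were named beside them. That a gene was not called at 50 µM against primed does not show equal levels.

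Genes that differed from both primed and 2i alone were named by a separate rule. Hormad2, of meiotic chromosome axes (chromosome 11, 4345814 to 4441105), was at 21.1, 20.01 and 23.7 CPM in primed, 16.7, 17.8 and 16.4 CPM in 2i alone and 2.64, 5.82 and 5.99 CPM at 50 µM, lower than both (-2.14 ± 0.22 and -1.80 ± 0.23, adjusted p 8.79e-08 and 2.17e-05). The noncoding Platr3 was lower than both too (-0.64 ± 0.15 and -1.72 ± 0.14). The collagen receptor gene Ddr2 was at 7.15, 7.57 and 8.26 CPM in primed, 43.6, 42.7 and 43.4 CPM in 2i alone and 14.6, 13.3 and 10.8 CPM at 50 µM, higher than primed (0.75 ± 0.15) and lower than 2i alone (-1.74 ± 0.13). Enox1 and Itga9 were lower than primed (-2.57 and -0.50) and higher than 2i alone (2.01 and 1.58); Itga9 passed narrowly against primed (adjusted p 0.0497, and up to 0.166 without 1 library), and the call of Enox1 against 2i alone was lost without 50 µM replicate 1 or 2i replicate 3 (adjusted p up to 0.0653).

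**Figure D5:**
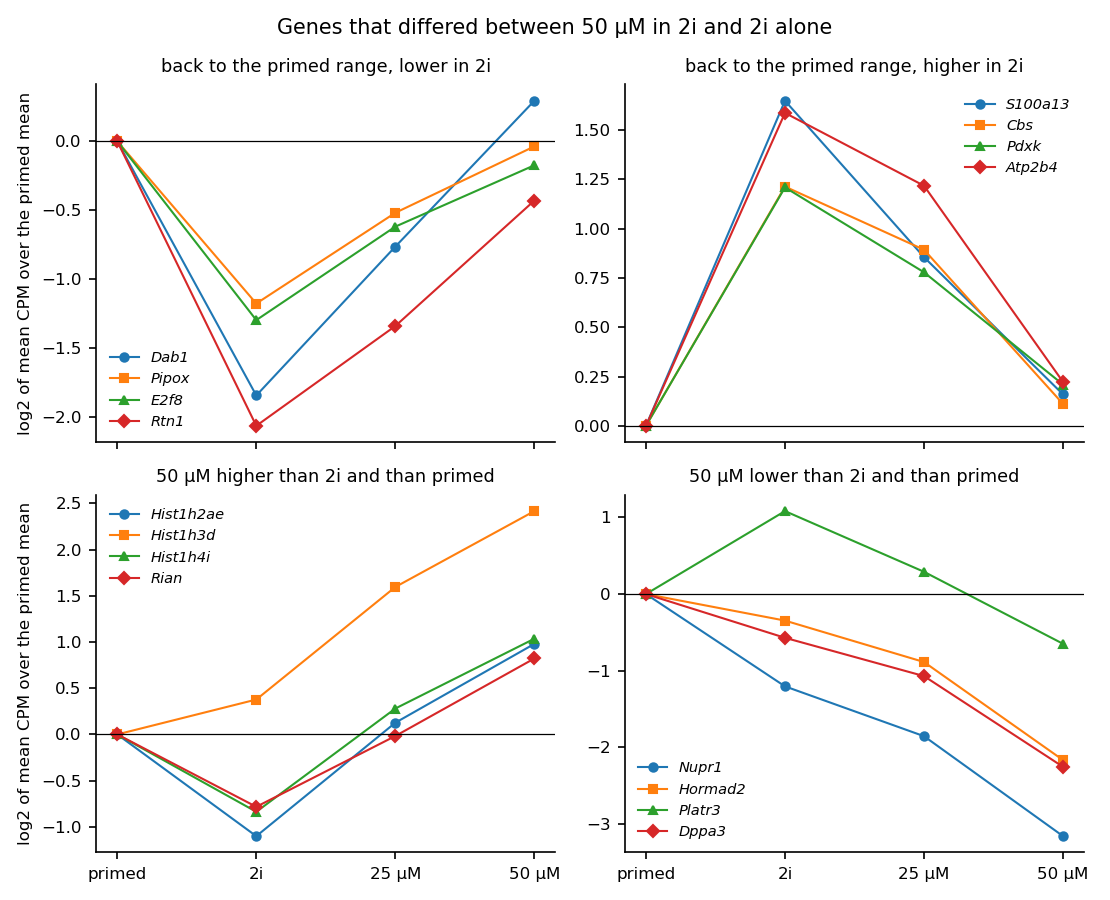
Log2 of the mean CPM of each group (3 libraries) over the primed mean, for primed, 2i alone, 25 µM and 50 µM, 1 line a gene in 4 panels by pattern; the upper panels hold genes not called at 50 µM against primed. Dab1 and Cbs lie near 0 at 50 µM with 2i alone apart, Hormad2 is lowest at 50 µM, and Hist1h3d is highest there.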

How the data were processed

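RNA of R1 mouse embryonic stem cells was sequenced from the 3′ end (QuantSeq libraries primed with oligo-dT, on a NextSeq 550, per the labels' protocols). The values used are whole-number counts per Ensembl gene ID, 1 deposited file a library, made by the authors; per the submitters' processing notes, FastQC, STAR and DESeq2 1.32.0 were used with GRCm38 (mm10). The sources used here do not give the version of STAR, the read counter, the strand setting or whether molecular identifiers were counted, so overlapping genes may share counts. Totals of the 6 libraries were 5894561 to 6652846 counts; intervals and floors cover counting error only. A deposited table of all libraries held the same counts and was not used. No column was left unmapped.

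All 12 libraries, 3 in each of 4 groups taken from the labels, were fitted together in edgeR 4.0.16 (filterByExpr, TMM, robust quasi-likelihood F test, R 4.3.3), with a count filter that a gene can pass through 1 group alone, contrasts of 50 µM against primed and against 2i alone and Benjamini-Hochberg adjustment over 13230 genes. The SE is the absolute log2 fold change divided by the square root of F. A group without a count was given a floor of 3 counts over its 3 libraries, and fitted log2 CPM values used a prior count of 2. In the comparison with 2i alone, deviations of same-numbered libraries correlated at 0.249, 0.115 and 0.139, and those of differently numbered libraries at -0.156 to 0.039. The replicate block is therefore given beside results there. The labels do not say that the numbers pair libraries, so block counts are an alternative and not the main result.

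Named genes were the 10 largest rises and falls (called, mean log2 CPM of at least 3, groups not overlapping, no predicted gene), the 6 largest of these in each direction against 2i alone, 4 genes in each direction not called against primed although 2i alone was, anchor genes, and up to 4 genes a list with the smallest p. Some of them are not reported here. Other genes were chosen after their values were seen. The gene lists, 33 with 1064 distinct genes and 36 genes on more than 1, were chosen with earlier results of these data known. Alternatives were DESeq2 1.42.0, limma 3.58.1 (voom), RLE size factors, no filter, a fit of 2 groups, a replicate block and leaving out each library. The edgeR fit was tested on simulated data with 50 genes changed at each fold. It recovered 68% of 2-fold and 84% of 4-fold falls, against 82% and 100% of rises of these folds. False calls numbered 7, with 12665 genes tested. Promoter sequences and motif shares are from RefSeq promoters of GRCm38.p6, searched on both strands. Positions are on GRCm38.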

Additional observations from a re-analysis of the deposited data

How the results depend on the processing

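Against primed, edgeR called 5859 genes, and the other settings gave 5439 with DESeq2, 5818 with RLE size factors, 6445 without the filter, 5519 in a fit of 2 groups and 5816 with limma voom. Leaving out 1 library gave 5117 to 5486 genes, 2519 to 2737 higher and 2552 to 2821 lower. With the replicate block 6786 genes were called, 3481 higher and 3305 lower. Deviations of same-numbered libraries correlated at 0.175, 0.051 and 0.111, and those of differently numbered libraries at -0.143 to 0.058. The labels do not say whether the numbers pair libraries, and these weak correlations cannot decide it. Replicate 1 did share an offset across groups. On the third principal component it lay at 6.48 to 10.4 in all 4 groups, and the other libraries at -6.65 to -0.89. The main fit does not model this offset, and its source was not tested. Against 2i alone 1994 genes were called, 927 higher and 1067 lower, and the replicate block gave 3240, 1599 higher and 1641 lower. The other settings gave 1730 with DESeq2, 1940 with RLE size factors, 2176 without the filter, 1800 in a fit of 2 groups and 1876 with limma voom. Leaving out 1 library gave 1217 to 1668 genes, 505 to 744 higher and 712 to 1074 lower; the fewest were 1217 without 2i replicate 2 and 1284 without 2i replicate 3, and higher calls were at most 594 without any library of these 2 groups other than 50 µM replicate 2. The share of calls that were higher was 46.49% with all libraries and 35.61% without 2i replicate 1. No named gene changed direction with a call. Of 182 named genes, 167 passed against primed, and 10 of them lost the call without some library; 91 passed against 2i alone, and 28 of them lost it. The cause of these changes was not tested. At this depth, genes with few counts had wide errors.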

Other observations

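Annotation classes differed in how many of their genes fell. Of 159 tested genes of the annotation class TEC, which holds loci still to be experimentally checked, 37 were higher (23.3%, against 22.6% of all genes) and 3 lower (1.89%, against 21.7%) at 50 µM than in primed, with a median log2 fold change of 0.54. Of 329 processed pseudogenes 23 were higher and 8 lower (median 0.11), of 235 lincRNA genes 44 were higher and 56 lower (median 0.03), of 138 antisense genes 24 and 17 (median 0.06), of 108 processed transcripts 34 and 19 (median 0.10), of 165 genes without a class 30 and 34 (median -0.11), and of 11900 protein-coding genes 2758 were higher and 2718 lower (median 0.02). These classes differ in level, and the part of level in the counts was not tested.

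By chromosome, medians on the autosomes lay between -0.07 on chromosome 11 and 0.11 on chromosome 16, and chromosome X was at -0.07. Chromosome 11 had 187 genes higher and 303 lower of 1091 tested. The 14 tested genes of the mitochondrial genome had a median of 0.36, with 5 higher and 1 lower.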
